A study of Mus musculus with 2031 samples.

Results

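The genes described here are 6 that handle glutamate in astrocytes, chosen by name from the 49568 gene rows of the count table: *Slc1a2*, *Slc1a3*, *Glul*, *Glud1*, *Slc38a3* and *Slc25a18*. All 6 were found and all 6 passed the low-count filter in every fit. Astrocytes clear the transmitter glutamate that neurons release. The transporters EAAT2 (*Slc1a2*) and GLAST (*Slc1a3*) bring it in, glutamine synthetase (*Glul*) turns it into glutamine, and the transporter SNAT3 (*Slc38a3*) can pass glutamine out again for neurons to reuse. Glutamate dehydrogenase (*Glud1*) instead feeds glutamate into the mitochondrial citric acid cycle, and the carrier encoded by *Slc25a18* moves glutamate across the inner mitochondrial membrane.

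The study sequenced single cells of the cortex and the hippocampus of wild-type C57BL/6J mice at postnatal day 56 (P56), to compare astrocytes between the areas and to divide them into subtypes. The cortex gave 2 cell suspensions of 1 mouse each, both mice from 1 litter. The hippocampus gave 2 suspensions, each pooled from 4 littermates of another litter. Area, litter and number of mice pooled therefore cannot be told apart. Cells positive for ACSA-2 (the surface protein ATP1B2) and negative for the oligodendrocyte antigen O1 were sorted into single wells and sequenced with Smart-seq2, which counts reads and not molecules.

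The depth of the 2030 cells used ran from 600758 to 3238215 gene counts (median 1458411). The authors' list gave 1781 astrocytes of the subtypes AST1 (657 cells), AST2 (555), AST3 (452), AST4 (91) and AST5 (26), but 33 cells of the first cortical suspension are not in the list as used here and were left out. It also gave 30 endothelial, 17 neuronal, 11 microglial and 9 oligodendrocytic cells, and 27, 12, 48 and 47 mural cells in the 2 cortical and the 2 hippocampal suspensions. These cells passed the same sort and are what it left of other types. Summed astrocyte markers reached 31892 to 32769 CPM (counts scaled to the same total in every sum) in the 4 suspensions, against 509 to 3484 CPM in mural, endothelial and neuronal cells, and the markers of those types summed to at most 147.6 CPM in the astrocytes. *Atp1b2*, whose protein was sorted for, is among the astrocyte markers. It alone held 2897, 642 and 370 CPM over all mural, endothelial and neuronal cells. Replicates are sums of the counts of a type in a suspension, with at least 5 cells. Levels are CPM of these sums with the SD over n sums. Differences between groups are log2 values from edgeR's quasi-likelihood test with TMM scaling, with the standard error (SE) and a Benjamini-Hochberg adjusted p over all genes tested, and a gene was called at an adjusted p under 0.05. The subtypes were found by clustering these same counts, so p-values between subtypes describe those clusters. Counting error aside, fewer cells that express a gene and less RNA per cell cannot be told apart in a sum.

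In the mouse genome GRCm38, *Slc1a2* lies on the plus strand of chromosome 2 (102658659 to 102790784) and *Slc1a3* on the minus strand of chromosome 15 (8634124 to 8710764). *Glul* lies on chromosome 1 (153899944 to 153909723, plus strand) and *Glud1* on chromosome 14 (34310727 to 34345265, plus strand). *Slc38a3* is on chromosome 9 (107650634 to 107669530, minus strand) and *Slc25a18* on chromosome 6 (120773578 to 120794336, plus strand). Exons of *Slc1a2* overlap an antisense gene, those of *Glul* overlap *Teddm2* on the other strand, and those of *Slc25a18* share 32 bases with *Atp6v1e1*. Reads on these bases cannot be split by strand. *Glud1* has a processed pseudogene, *Glud-ps*, which can take or lose reads of its parent.

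The 250 bases before the RefSeq start are shown for 4 of the genes (GRCm38.p6, 5′ to 3′ on the strand of the gene), because *Slc1a3* and *Slc25a18* were called lower in all 3 other cell types tested, and *Glul* and *Glud1* in none. This is a split by the threshold and not by level, since *Glul* in mural cells was at -6.97 (adjusted p = 0.079) and *Slc1a3* at -6.25 (0.037), and the mural and neuronal calls of *Slc1a3* did not hold with the suspension as a block. *Slc38a3* was also called in none of the 3 types, but no RefSeq window was available for it. Capitals mark 4 motifs on either strand, which are the CCAAT box (CCAAT), the GC box (GGGCGG), the TATA box (TATAAA) and a short form of the cAMP response element (TGACGT). The windows lie at chr15:8710808-8711057 (*Slc1a3*, minus strand), chr6:120773518-120773767 (*Slc25a18*), chr1:153899679-153899928 (*Glul*) and chr14:34310477-34310726 (*Glud1*), the last 3 on the plus strand.
Slc1a3: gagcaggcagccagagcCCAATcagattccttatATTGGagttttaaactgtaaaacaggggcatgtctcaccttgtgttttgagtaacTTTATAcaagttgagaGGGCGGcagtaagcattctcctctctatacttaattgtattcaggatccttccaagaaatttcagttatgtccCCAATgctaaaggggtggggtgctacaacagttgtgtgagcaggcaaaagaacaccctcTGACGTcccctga
Slc25a18: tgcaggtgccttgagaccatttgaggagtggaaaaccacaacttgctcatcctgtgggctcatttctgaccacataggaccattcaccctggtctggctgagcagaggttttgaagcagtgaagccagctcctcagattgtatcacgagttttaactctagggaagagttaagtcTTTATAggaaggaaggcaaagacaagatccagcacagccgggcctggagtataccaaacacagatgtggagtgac
Glul: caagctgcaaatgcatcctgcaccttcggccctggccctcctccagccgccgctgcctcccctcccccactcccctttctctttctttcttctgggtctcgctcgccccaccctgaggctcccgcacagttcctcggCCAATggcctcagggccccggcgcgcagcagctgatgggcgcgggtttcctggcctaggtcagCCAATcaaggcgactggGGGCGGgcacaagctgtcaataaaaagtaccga
Glud1: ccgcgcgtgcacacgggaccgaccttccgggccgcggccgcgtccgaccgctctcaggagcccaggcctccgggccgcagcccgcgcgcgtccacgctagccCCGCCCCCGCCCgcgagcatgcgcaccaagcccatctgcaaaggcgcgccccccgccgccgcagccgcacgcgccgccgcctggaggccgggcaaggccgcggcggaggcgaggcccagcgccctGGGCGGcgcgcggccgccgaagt

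The windows of *Slc1a3* and *Slc25a18*, of the first pair, held 44.8% and 48.8% G and C and 2 CpG each. Those of *Glul* and *Glud1* held 64.8% and 82% and had 15 and 46 CpG. The median over 32817 promoters of this kind was 52.4%. *Glul* carried CCAAT at 2 places, the nearer 50 to 46 bases before the start, and *Slc1a3* at 3. CCAAT was in 33.8% of all these windows, GGGCGG in 32.7%, TATAAA in 12.4% and TGACGT in 6.46%. The RefSeq window for *Slc1a2* at chr2:102706188-102706437 held none of the 4 motifs and lies inside the annotated gene, as does most of the *Slc25a18* window.

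All 6 genes were well represented in astrocytes. In CPM per kilobase of exon, *Slc1a3* led with 1106 over the 4 suspensions, followed by *Slc25a18* (502), *Glul* (353.8), *Slc1a2* (338.3), *Glud1* (248.9) and *Slc38a3* (148.3). The order of *Glul* and *Slc1a2* differed between the areas, with means per kilobase of 412.7 and 295.9 in the cortex and 294.95 and 380.6 in the hippocampus. Without the division by length the levels were 9442 ± 853 CPM for *Slc1a3* and 4443 ± 644 CPM for *Slc1a2* (SD, n = 4). *Glul* stood at 1176 ± 226.8 CPM, *Glud1* at 1048 ± 87.1, *Slc25a18* at 960 ± 170.8 and *Slc38a3* at 783 ± 227.8 (SD, n = 4).

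The uptake transporters were near universal. Of 1781 astrocytes, 1780 held a count of *Slc1a3* and 1777 a count of *Slc1a2*, and no cell lacked both. The 4 cells without *Slc1a2* were all AST4 and the 1 cell without *Slc1a3* was AST5. Counts of *Glul* were found in 96.0% of astrocytes (exact binomial 95% interval 95.0 to 96.9), of *Glud1* in 84.1% (82.3 to 85.8), of *Slc25a18* in 81.8% (79.9 to 83.5) and of *Slc38a3* in 72.04% (69.9 to 74.1). Thinning each cell to 50000 counts lowered these 4 shares to 92.6%, 81.7%, 79.7% and 67.9%. All 6 genes together were found in 899 astrocytes and 5 of them in another 631. The intervals cover counting error only.

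Within a subtype and suspension, cells high in 1 of the genes were in most groups hardly high in another. Over 12 groups of at least 40 cells, the median Spearman correlation of a gene pair ran from -0.06 (*Slc1a2* with *Slc25a18*) to 0.10 (*Glul* with *Slc25a18*). *Slc1a2* and *Slc1a3* had a median of 0.09 and were positive in 11 of 12 groups, with 0.30 and 0.41 in the AST4 groups. Single groups ran from -0.33 (*Slc38a3* with *Slc25a18* in AST3) to 0.49 (*Slc1a3* with *Slc25a18* in AST4, 41 cells). Cells of a group share a suspension but come from several dates of reverse transcription and pools, and these correlations are descriptions.

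The hippocampus was compared with the cortex first over all astrocytes. The transporters *Slc1a2* and *Slc1a3* and the enzyme *Glud1* were higher in both hippocampal suspensions than in both cortical ones, while *Glul*, *Slc38a3* and *Slc25a18* were lower, but edgeR called none of them. *Slc1a2* measured 3844 and 3928 CPM in the cortex and 4961 and 5037 CPM in the hippocampus. *Slc1a3* measured 8497 and 8944 CPM against 10173 and 10155 CPM. For both, the areas did not overlap.

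On the glutamine side, *Glul* measured 1395 and 1348 CPM in the cortical suspensions and 983 and 977 CPM in the hippocampal ones. *Slc38a3* measured 916 and 1035 CPM against 575 and 606 CPM, the largest of the 6 differences on the log2 scale. *Slc25a18* measured 1084 and 1128 CPM against 829 and 797 CPM, and *Glud1* 994 and 959 CPM against 1088 and 1150 CPM. Sums of the areas did not overlap for all 6 genes, as for 46% of the 19160 genes tested.

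The log2 differences, hippocampus minus cortex, were 0.39 ± 0.037 for *Slc1a2* (SE, adjusted p = 0.15), 0.25 ± 0.044 for *Slc1a3* (0.22) and 0.22 ± 0.052 for *Glud1* (0.24). They were -0.46 ± 0.041 for *Glul* (SE, adjusted p = 0.15), -0.42 ± 0.055 for *Slc25a18* (0.19) and -0.70 ± 0.091 for *Slc38a3* (0.19). edgeR called 0 of the 6 genes and 0% of all genes tested, although all 6 genes and 2609 genes in all had an unadjusted p under 0.05. With DESeq2 all 6 were past the threshold, as were 953 genes that were higher and 905 that were lower, together 9.70% of the genes tested. On cells thinned to 50000 counts, edgeR called 99 genes higher and 77 lower, among them *Slc1a2*, *Glul*, *Slc38a3* and *Slc25a18*. Together these calls were 1.18% of the genes tested in that setting. Scaling by ERCC spike-in counts moved the median of all genes to -0.20 and left *Slc1a3* at 0.03 and *Glud1* at 0.01.

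The directions were read within the 10 reverse transcription batches and the 8 library pools that held cells of both areas. The batches are labelled by date, and some dates hold more than 1 batch. *Slc1a2* and *Slc1a3* were higher in the hippocampus, and *Glul*, *Slc38a3* and *Slc25a18* lower, within all 10 batches and all 8 pools. *Glud1* was higher within 9 batches and 7 pools. The median within batches was -0.66 for *Slc38a3*, -0.50 for *Glul* and 0.26 for *Slc1a2* on the log2 scale. Batches and pools divide the same cells of the same suspensions, so they add no replicate of an area. The share of all genes with such agreement was not counted.

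The make-up of the astrocytes also differed between the areas. AST1 made up 12.4% and 11.02% of cortical and 68.96% and 64.02% of hippocampal astrocytes, and AST2 52.1% and 56.7% against 2.54% and 5.14%. Within AST1 the difference of *Slc1a3* was 0.23 ± 0.11 (log2, SE, not called), close to the 0.25 over all astrocytes. Within AST1 the differences of all 6 genes were smaller than over all astrocytes, which was not so within AST2. There the fitted differences were -0.55 ± 0.30 for *Glul*, -0.45 ± 0.22 for *Glud1*, with the sign turned, and -0.45 ± 0.12 for *Slc25a18* (log2, SE, none called), beside a median of -0.75 over all genes. The hippocampal sums of *Glul* in AST2 were 647 CPM in 10 cells and 1303 CPM in 22. Averaged over AST1, AST2 and AST3 with equal weight, hippocampus minus cortex was 0.19 ± 0.061 for *Slc1a2* and -0.34 ± 0.17 for *Glul* (log2, SE). *Slc1a3* came to 0.0034 ± 0.063, *Slc38a3* to -0.09 ± 0.16, *Slc25a18* to -0.09 ± 0.068 and *Glud1*, with the sign reversed, to -0.11 ± 0.12. None of these 6 was called by edgeR, beside 0.198% of 21204 genes, and 1 had an unadjusted p under 0.05. DESeq2 called 0 of them, beside 11.7% of all genes. The median of all genes in this average was -0.23, and the sums of AST2 in the hippocampus held 10 and 22 cells. For *Slc1a3* the average joins 0.23 in AST1, -0.19 in AST2 and -0.03 in AST3.

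**Figure D1:**
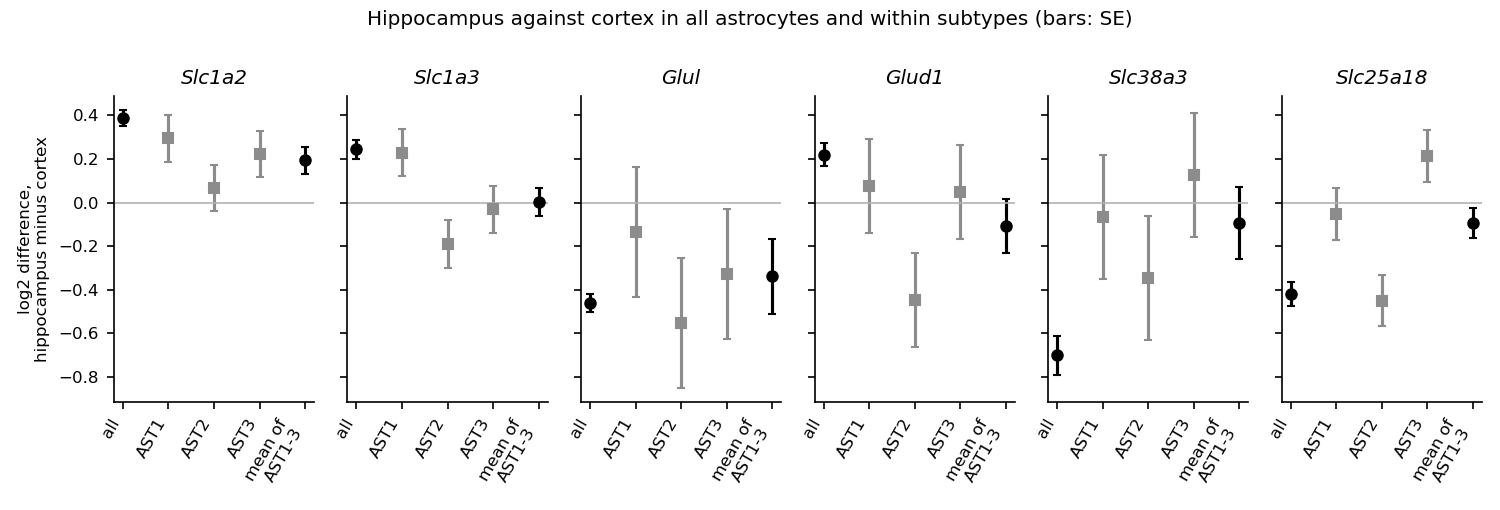
Log2 difference of each gene between hippocampus and cortex (y axis), for all astrocytes, within AST1, AST2 and AST3, and for their mean; bars are the SE of the edgeR fit. *Slc38a3* stood at -0.70 over all astrocytes and at -0.09 in the mean of the subtypes, and *Slc1a3* at 0.25 and 0.0034. Within AST1, AST2 and AST3 *Slc1a3* stood at 0.23, -0.19 and -0.03.

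In AST1, which gave the largest hippocampal sums, *Slc1a2* measured 4284 and 5122 CPM in the cortex and 5545 and 5728 CPM in the hippocampus (log2 0.29 ± 0.11, adjusted p = 1.0). *Slc38a3* measured 571 and 674 CPM against 572 and 590 CPM there, with overlapping areas. The AST1 sums of *Slc1a3* ran from 8791 to 9030 CPM in the cortex and from 10094 to 10292 CPM in the hippocampus. In AST2, *Slc25a18* measured 1236 and 1258 CPM against 1030 and 952 CPM, a log2 difference of -0.45 ± 0.12 that missed the threshold (adjusted p = 0.13). In AST3 the same gene measured 946 and 1015 CPM against 1187 and 993 CPM. Over these 3 subtypes edgeR called 0 of 18 member tests. It called 0%, 1.07% and 0.00472% of all genes in AST1, AST2 and AST3, with 2 of the 18 at an unadjusted p under 0.05. DESeq2 also called 0 of the 18, beside 5.86%, 15.8% and 4.51% of all genes in these subtypes. No difference of the area effect between subtypes was called for these genes either (0 of 18 by edgeR and by DESeq2, 3 at an unadjusted p under 0.05). The share of all genes that edgeR called in these 3 differences was 0.363% for AST1 minus AST2, 0% for AST1 minus AST3 and 0.302% for AST2 minus AST3. With DESeq2 it was 14.6%, 5.51% and 11.9% in the same order.

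The balance of the uptake transporters can be read within a suspension without any scaling. The log2 ratio of *Slc1a2* to *Slc1a3* counts was -1.14 and -1.19 in cortical astrocytes and -1.04 and -1.01 in hippocampal ones. The areas differed by 0.14 and did not overlap, with an exact two-sided permutation p = 0.33, the smallest that 2 against 2 suspensions allow. As a mean over cells the difference was 0.060 (exact permutation p = 0.67) and the areas overlapped. By summed counts it was 0.27 within AST2 and 0.25 within AST3. Within AST1 it was 0.07 with overlapping areas, and -0.037 without the first cortical suspension. The log2 ratio of *Glul* to *Glud1* was 0.49 and 0.49 in the cortex and -0.15 and -0.24 in the hippocampus, a difference of -0.68 with the same exact p = 0.33. As a mean over cells the difference was -1.35, and within AST1 this ratio of summed counts differed by -0.20. Within AST3 this ratio was 0.32 and 0.38 against -0.098 and 0.039, and within AST2 0.68 and 0.64 against 0.19 and 0.75, so that in AST2 the areas overlapped.

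**Figure D2:**
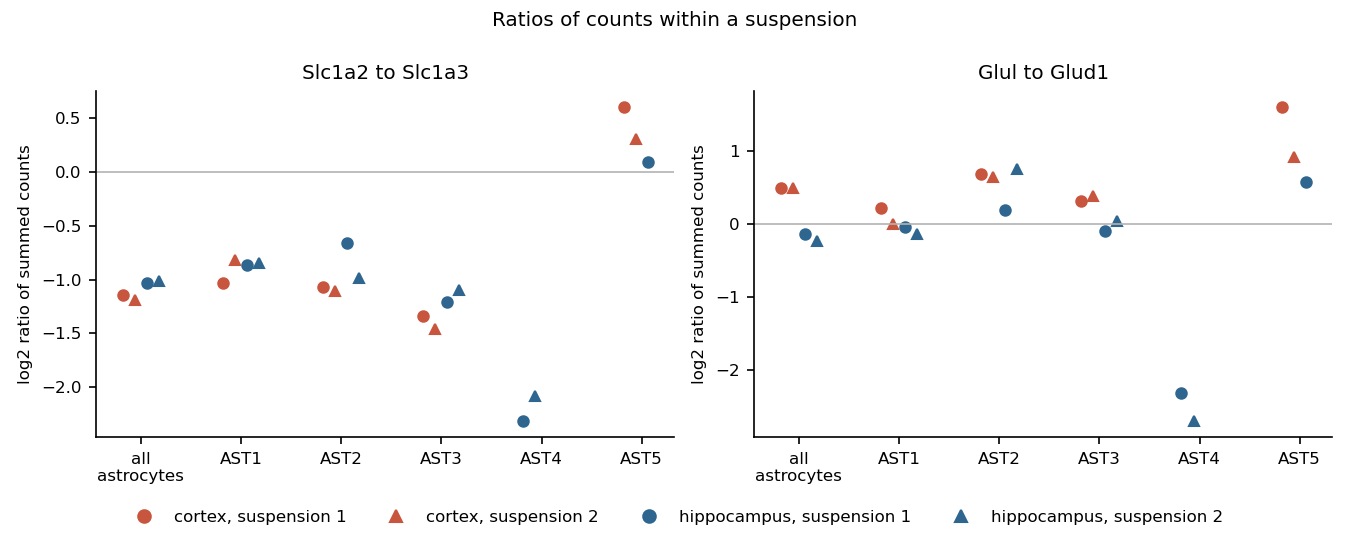
Log2 ratio of summed counts (y axis) of *Slc1a2* to *Slc1a3* and of *Glul* to *Glud1* in all astrocytes and in each subtype; each point is 1 suspension. AST4 lies lowest in both ratios, at -2.32 and -2.08 and at -2.32 and -2.71, and AST5 is the subtype whose 3 sums held more counts of *Slc1a2* than of *Slc1a3*.

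AST1, AST2 and AST3 made up most astrocytes. *Slc38a3* and *Slc25a18* were lower in all 4 sums of AST1 than in any sum of AST2 or AST3, though edgeR called none of the 6 genes between these subtypes. *Slc1a2* stood at 5170 ± 642 CPM in AST1, 4072 ± 342.3 in AST2 and 3908 ± 302.2 in AST3 (SD, n = 4). The levels of *Slc1a3* were 9551 ± 751, 7898 ± 490 and 9457 ± 530 CPM, and *Glud1* at 1108 ± 80.1, 761 ± 135.9 and 1111 ± 55.2 CPM, in the same order. Both of these were lowest in AST2. In AST1 *Slc38a3* and *Slc25a18* stood at 602 ± 48.9 and 728 ± 42.9 CPM, against 1115 ± 112.7 and 1119 ± 151.35 CPM in AST2 and 809 ± 34.5 and 1035 ± 105.3 CPM in AST3. *Glul*, at 1123 ± 173.3, 1162 ± 344.3 and 1250 ± 194.6 CPM, had overlapping sums in all 3.

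Against the other subtypes, weighted by their cells, AST1 was higher in *Slc1a2* by 0.54 ± 0.082 on the log2 scale (adjusted p = 0.035), the only call among its 6 tests, beside 0.0384% of 18233 genes. The call was lost with DESeq2 (adjusted p = 0.12), RLE scaling (0.19), ERCC scaling (1.0), no filter (0.20) and sums of at least 2 cells (1.0). With the suspension as a block the adjusted p was 0.067, and it was 0.61, 0.51 and 1.0 without the second cortical, the first hippocampal and the second hippocampal suspension. edgeR called 0 of 6 genes in AST2, beside 0.0548% of all genes, and 0 of 6 in AST3, beside 0%. At an unadjusted p under 0.05 these were 3 and 0 genes, and 0 in both with DESeq2, beside 4.83% and 3.99% of all genes with that tool. With the other subtypes weighted equally edgeR called *Slc1a2*, *Slc1a3* and *Glul* in AST1 and *Slc1a3* and *Glul* in AST3, all higher, and none in AST2, but the share of all genes called was then 5.52% in AST1, 4.95% in AST3 and 5.25% in AST2. Of the 18 member tests between pairs of these 3 subtypes, edgeR and DESeq2 each called 0, and 8 had an unadjusted p under 0.05. *Glud1* differed between AST1 and AST2 by 0.69 ± 0.17 (adjusted p = 0.53), *Slc1a2* by 0.51 ± 0.10 (0.21) and *Slc38a3* by -0.71 ± 1.05 (1.0). The SE of *Slc38a3* is from a fit that also held 1 AST5 sum with 0 CPM of it, whose part was not tested. The sums of *Slc38a3* did not overlap between the 3 subtypes, nor did those of *Glud1* between AST1 and AST2. The share of all genes whose sums separate in this way was not counted for subtypes, here or for AST4 and AST5 below. Such a gap is therefore a description, and a missed threshold does not show that the subtypes are alike. The shares that edgeR called over all genes were 0.0548% for AST1 against AST2, 0.00548% for AST1 against AST3 and 0% for AST2 against AST3. With DESeq2 they were 3.88%, 3.9% and 3.77% in the same order.

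**Figure D3:**
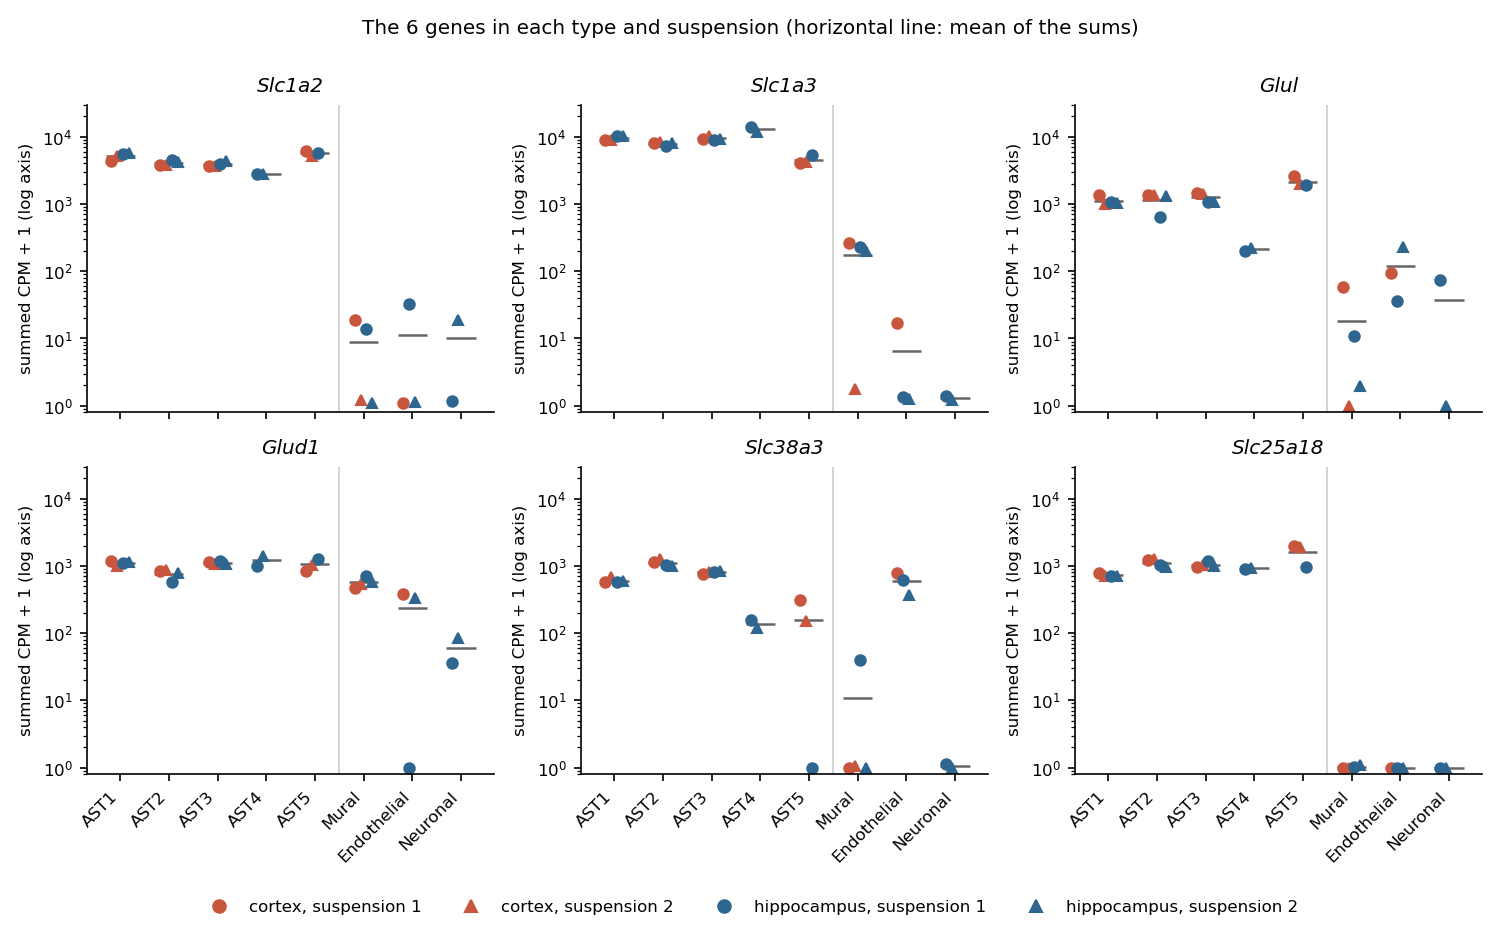
Summed CPM plus 1 (log axis) of each gene by subtype and, right of the grey line, by other cell type; each point is the sum of at least 5 cells of 1 suspension and the horizontal line the mean. *Glul* is lowest among the subtypes in AST4 (201.99 and 217.5 CPM), and *Slc25a18* is at or below 0.0906 CPM in all mural, endothelial and neuronal sums.

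AST4, which came almost entirely from the hippocampus, had the lowest *Glul* and *Slc1a2* of the subtypes, while its *Slc1a3* sums were the highest in CPM. *Glul* measured 201.99 and 217.5 CPM in the 2 hippocampal suspensions, below all other astrocyte sums, whose lowest was 647 CPM. *Slc1a2* measured 2802 and 2817 CPM, again below all other astrocyte sums. *Slc1a3* measured 13978 and 11902 CPM, above all of them.

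The test gave AST4 minus the others -2.60 ± 0.27 for *Glul* (log2, SE, adjusted p = 0.00021) and -1.01 ± 0.12 for *Slc1a2* (0.00062). These were 2 calls in 6 tests, beside 0.636% of all genes. On sums of at least 2 cells, *Glul* was called (adjusted p = 0.022) and *Slc1a2* was not (0.51). Both were also called against each of AST1, AST2, AST3 and AST5, where 0.653%, 0.708%, 0.702% and 15.2% of all genes were called. The difference of *Slc1a3* was 0.24 ± 0.10 and was not called (adjusted p = 0.58). It was called with the other subtypes weighted equally (0.64 ± 0.10, 0.0035), beside 2.825% of all genes. By pairs with TMM, AST4 minus AST5 was 1.89 and called. AST1, AST2 and AST3 minus AST4 were -0.06, -0.48 and -0.11, none called. The lead of AST4 over AST1 and AST3 in CPM was thus small with TMM. *Glud1*, at 1011 and 1424.5 CPM, and *Slc25a18*, at 912 and 918 CPM, did not pass the test (0.040 ± 0.19 and -0.18 ± 0.23). *Slc38a3* measured 155.1 and 118.2 CPM, below all sums of AST1, AST2 and AST3, and was not called (-2.54 ± 1.41, adjusted p = 0.83). The fit behind this SE also held 1 AST5 sum of 6 cells with 0 CPM of *Slc38a3*, whose part in it was not tested. In the fit with 1 mean per subtype and area, the SE of *Slc38a3* for hippocampus minus cortex within AST1 was 0.285.

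Shares of cells followed the sums in AST4. *Glul* was counted in 64.8% of its 91 cells (exact 95% interval 54.1 to 74.6) and *Slc38a3* in 28.6% (19.6 to 39), at a median depth of 1405690 counts. In AST1 the shares were 96.5% and 62.4% at 1431483 counts. The median AST4 cell held 42.6 CPM of *Glul*, against 935 CPM in AST1. Without the second hippocampal suspension 1 AST4 sum remained, and the adjusted p was 0.081 for *Glul* and 0.29 for *Slc1a2*, with differences of -2.39 and -0.84. Scaling by ERCC counts gave -0.38 for *Slc1a2* (adjusted p = 0.38), with the median of all genes at 0.70.

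Marker levels moved with AST4. Its 9 neural stem cell markers summed to 1307 and 1527 CPM against 41.1 to 202.5 CPM in the other subtypes, and its 10 astrocyte markers to 17823 and 17927 CPM against 27280 to 36172 CPM. Mural markers summed to 133.01 and 443.6 CPM in AST4. Their part in the differences of *Glul* and *Slc1a2* was not tested. Related genes of AST4 included *Prodh*, proline dehydrogenase, which starts the breakdown of proline to glutamate. At 153.7 and 166.1 CPM, against 374.8 to 876 CPM in the sums of AST1, AST2 and AST3, it was the one gene of 31 tested that edgeR called (-2.03 ± 0.31, adjusted p = 0.0045), beside the 0.636% of all genes. DESeq2 called 7 of the 31, beside 11.5% of all genes. *Slc38a1*, which carries glutamine into cells, measured 297.8 and 360.7 CPM in AST4 and at most 33.5 CPM in any other astrocyte sum, and was counted in 54.9% of AST4 cells and 2.89% of AST1 cells. It was not called (adjusted p = 0.51). Pyruvate carboxylase (*Pcx*), which refills the citric acid cycle, measured 523 and 628 CPM against 126.6 to 204.5 CPM in the sums of AST1, AST2 and AST3, with an adjusted p of 0.065. Of all genes called in AST4, 17.2% were higher, against 61% with ERCC scaling and 37.3% with library size alone.

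AST5, the smallest subtype, had the lowest *Slc1a3* of the subtypes and so the highest ratio of *Slc1a2* to *Slc1a3*. Its sums of 8 and 10 cortical and 6 hippocampal cells held 6105, 5174 and 5646 CPM of *Slc1a2* and only 4026, 4196 and 5312 CPM of *Slc1a3*, which was below all other astrocyte sums. The log2 ratio of *Slc1a2* to *Slc1a3* counts was 0.60, 0.30 and 0.09, against -1.46 to -0.66 in AST1, AST2 and AST3. Divided by exon length it was -0.021, -0.32 and -0.53, so per kilobase *Slc1a2* did not exceed *Slc1a3* in AST5 either. *Glul* measured 2565, 1958 and 1890 CPM, above all other astrocyte sums.

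The difference of *Slc1a3*, AST5 minus the others, was -1.69 ± 0.095 (log2, SE, adjusted p = 6.1e-08), and it was called under all settings tried. *Glud1*, at 845, 1034 and 1267 CPM, was called with -0.61 ± 0.16 (adjusted p = 0.016), which made 2 calls in 6 tests beside 17% of all genes. Without the first or second cortical or the second hippocampal suspension the adjusted p of *Glud1* was 0.13, 0.063 and 0.087, and it was 0.095 with DESeq2, 0.30 with ERCC scaling and 0.47 on sums of at least 2 cells. Against single subtypes, *Slc1a3* was lower in AST5 than in each of AST1, AST2, AST3 and AST4, and *Glud1* than in AST1 and AST3. *Slc1a2* was called lower in AST5 than in AST1 with TMM (AST1 minus AST5 0.59 ± 0.11, adjusted p = 0.0026), but its plain CPM was higher in AST5 (5642 ± 465, SD, n = 3) than in AST1 (5170 ± 642, n = 4), so this direction rests on the scaling. In these pairs 17.3%, 15.3%, 16.4% and 15.2% of all genes were called. The scaling decided the direction of further values. TMM placed AST5 lower than plain CPM did, so *Slc1a2* came to -0.25 ± 0.094 (adjusted p = 0.092) where library size alone gave 0.42 (adjusted p = 0.00045). Without the first cortical suspension TMM gave -0.45 (0.0047). *Glud1* reversed to 0.083 with library size alone, and *Glul* moved from 0.26 ± 0.18 (adjusted p = 0.42) to 0.94 (0.00078). With TMM and the other subtypes weighted equally, *Glul* was called higher in AST5 as well (0.77 ± 0.18, adjusted p = 0.0090). By pairs with TMM, *Glul* was called for AST4 minus AST5 only (-2.72 ± 0.30). AST1, AST2 and AST3 minus AST5 were -0.12, -0.23 and -0.01, none called. The median of all genes was -4.55 with TMM and -4.39 without, and 2.1% against 14.1% of the genes called were higher.

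*Slc38a3* was sparse in AST5, with 312.1, 148.6 and 0 CPM and counts in 6 of 26 cells (23.1%, exact 95% interval 8.97 to 43.7). It was not called with edgeR (adjusted p = 0.11) and was called by DESeq2 (0.0079). Without the first hippocampal suspension, the AST5 sum with 0 counts, edgeR's adjusted p was 0.00087. Of 31 related genes tested 6 were called lower in AST5 and none higher, a share near the 17% of all genes called there. Among them were *Slc3a2*, the shared heavy chain of several amino acid exchangers, with 474 ± 340.4 CPM (SD, n = 3; -2.24 ± 0.33, adjusted p = 0.00029), and *Arl6ip1* (-0.54 ± 0.17, 0.038), which turned to 0.13 with library size alone. The glutamine transporter *Slc38a2* and the large neutral amino acid transporter *Slc7a5* had no count in any of the 26 cells, which allows a share of cells with a count of up to 11.5% (a floor of 3 counts over the cells, used for all counts of 0 and not the same as the exact intervals). Such a floor does not bound the share of cells that express a gene. *Pick1* was called as well, at 0 CPM in the 3 sums. The median AST5 cell had 1191244 counts and 1674.5 genes detected, against 1469312 and 2147 in all astrocytes. Oligodendrocyte markers summed to between 0.345 and 1036 CPM in the 3 AST5 sums, against at most 140.3 CPM in the other subtypes. The part of depth and of these markers in the AST5 values was not tested.

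**Figure D4:**
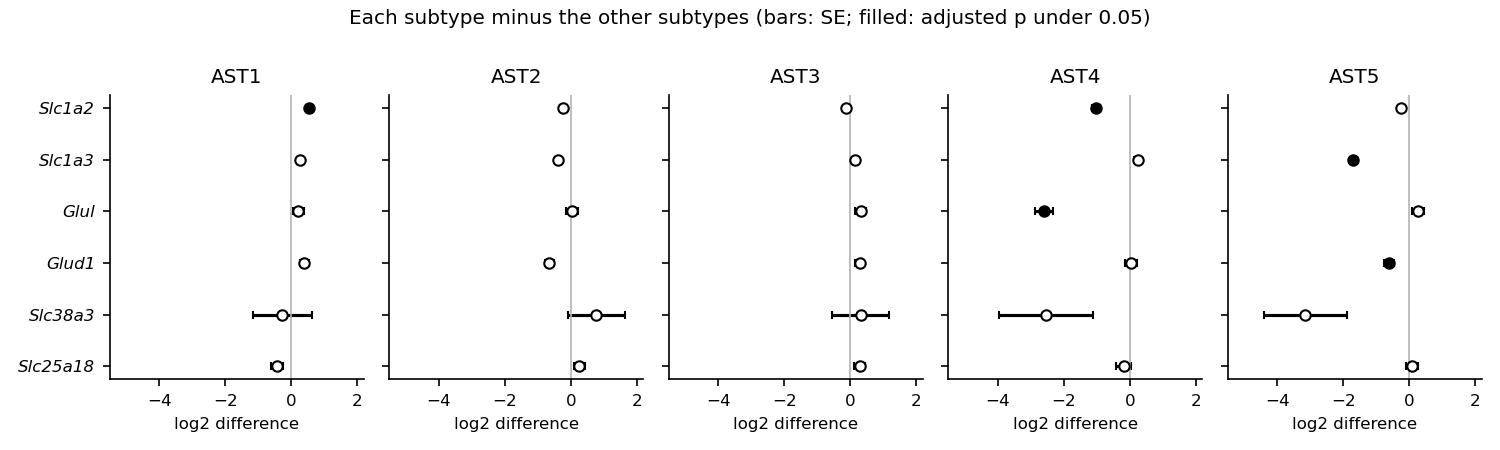
Log2 difference (x axis) of each gene between a subtype and the other subtypes weighted by cell number; bars are the SE of the edgeR fit, and filled points have an adjusted p under 0.05. The filled points are *Slc1a2* in AST1 and AST4, *Glul* in AST4, and *Slc1a3* and *Glud1* in AST5.

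By likeness of their profile over the 17 subtype sums, the genes closest to each member were different ones for each. Pearson's r of log2(TMM CPM + 1) among 3684 genes was highest for *Slc38a3* with *Slc2a1* (0.99), *Paqr7* (0.99) and *Tril* (0.99), and for *Slc1a3* with *Tmem9* (0.99), *Gsap* (0.98) and *Tm7sf3* (0.98). *Glul* was closest to *Pmm1* (0.96), *Eno1* (0.96) and *Aldh1l1* (0.95). *Glud1* was closest to *Cldn12* (0.87), *Ctnnd2* (0.87) and *Atp8a1* (0.85). For *Slc1a2* the nearest were *Tprkb* (0.86), *Acsl6* (0.86) and *Sparcl1* (0.85), and for *Slc25a18* *Bcl7b* (0.80), *Ndufa8* (0.78) and *Capza2* (0.77). Among the members themselves the highest r was 0.72, between *Slc1a3* and *Glud1*, and *Glul* with *Slc1a2* had 0.67. These values are descriptions, and the sums differ in their number of cells. *Slc38a3* had 0 CPM in the AST5 sum of 6 hippocampal cells and 118.2 to 1260 CPM in the other sums. On the log scale that 1 sum can weigh heavily in its r, and how far it sets the values of 0.99 was not tested.

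Outside astrocytes, the mitochondrial carrier *Slc25a18* was at or near 0 in mural, endothelial and neuronal cells, while 3 of 9 oligodendrocytic and 2 of 11 microglial cells held counts of it. It had no count in 30 endothelial and 17 neuronal cells, which allows shares of up to 10% and 17.6%, and its 4 mural sums lay between 0 and 0.0906 CPM. It was called lower than in astrocytes in all 3 types (adjusted p = 0.0012 in mural, 0.0022 in endothelial and 0.0042 in neuronal cells). Uptake transporters were low as well. *Slc1a2* stood at 17.6, 0.20, 13.1 and 0.11 CPM in mural sums and at no more than 31.03 CPM in endothelial and neuronal ones. *Slc1a3* stood at 172.2 ± 117.2 CPM in mural cells (SD, n = 4), where the second cortical sum held 0.74 CPM and the others 198.04 to 261.4. It stood at 16.1, 0.33 and 0.26 CPM in endothelial cells and at 0.39 and 0.21 CPM in neuronal cells.

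Mural cells had 3 calls in 6 tests (*Slc1a2*, *Slc1a3* and *Slc25a18*), beside 15.1% of all genes. Endothelial cells had 2 (*Slc1a3* and *Slc25a18*), beside 5.61%, and neuronal cells the same 2, beside 2.86%. With the suspension as a block, *Slc1a2* and *Slc1a3* in mural cells (adjusted p = 0.12 and 0.10) and *Slc1a3* in neuronal cells (0.055) were no longer called. Both mural calls were also lost without any 1 of the 4 suspensions (adjusted p from 0.082 to 0.18), and the endothelial call of *Slc1a3* without the first cortical or either hippocampal suspension (0.051 to 0.16). That of *Slc25a18* was lost without the first hippocampal suspension (0.052), and its neuronal call on sums of at least 2 cells (0.16). The neuronal calls of *Slc1a3* and *Slc25a18* were lost without the first (adjusted p = 0.33 and 0.11) or the second hippocampal suspension (0.33 and 0.075), which left 1 neuronal sum that is assumed to vary like the others.

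*Glud1*, *Slc38a3* and *Glul* each had a substantial level in some of the other types, though not in the same ones, and how restricted the genes are was not compared by a test. *Glud1* measured 475, 544, 698 and 569 CPM in mural cells, -1.46 ± 1.35 on the log2 scale against astrocytes and not called (adjusted p = 0.59). It was counted in 67 mural cells, a share of 50% (exact 95% interval 41.2 to 58.8), and in 45.5% after thinning. *Slc38a3* stood at 780, 608 and 367.3 CPM in endothelial sums, with counts in 18 of 30 cells, and the difference from astrocytes was within its error (-1.37 ± 2.22, adjusted p = 0.73). Summed astrocyte markers in these endothelial sums were 700 to 878 CPM, mural markers 10008 to 17355 CPM and endothelial markers 19223 to 24179 CPM. Of the astrocyte markers, *Atp1b2*, whose protein was sorted for, alone held 642 CPM over all endothelial cells. In mural cells *Slc38a3* was counted in 3 cells (2.24%) and in neuronal cells in 1 of 17. *Glul* was counted in 13 mural cells (9.70%), 13 of 30 endothelial cells and 1 of 17 neuronal cells, at 16.1, 165.5 and 38.5 CPM over all cells of each type. It was counted in all 9 oligodendrocytic cells, with 1229 CPM over them, and in 9 of 11 microglial cells with 292.2 CPM. Those types gave fewer than 5 cells in every suspension and so entered no test on sums of at least 5 cells.

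**Figure D5:**
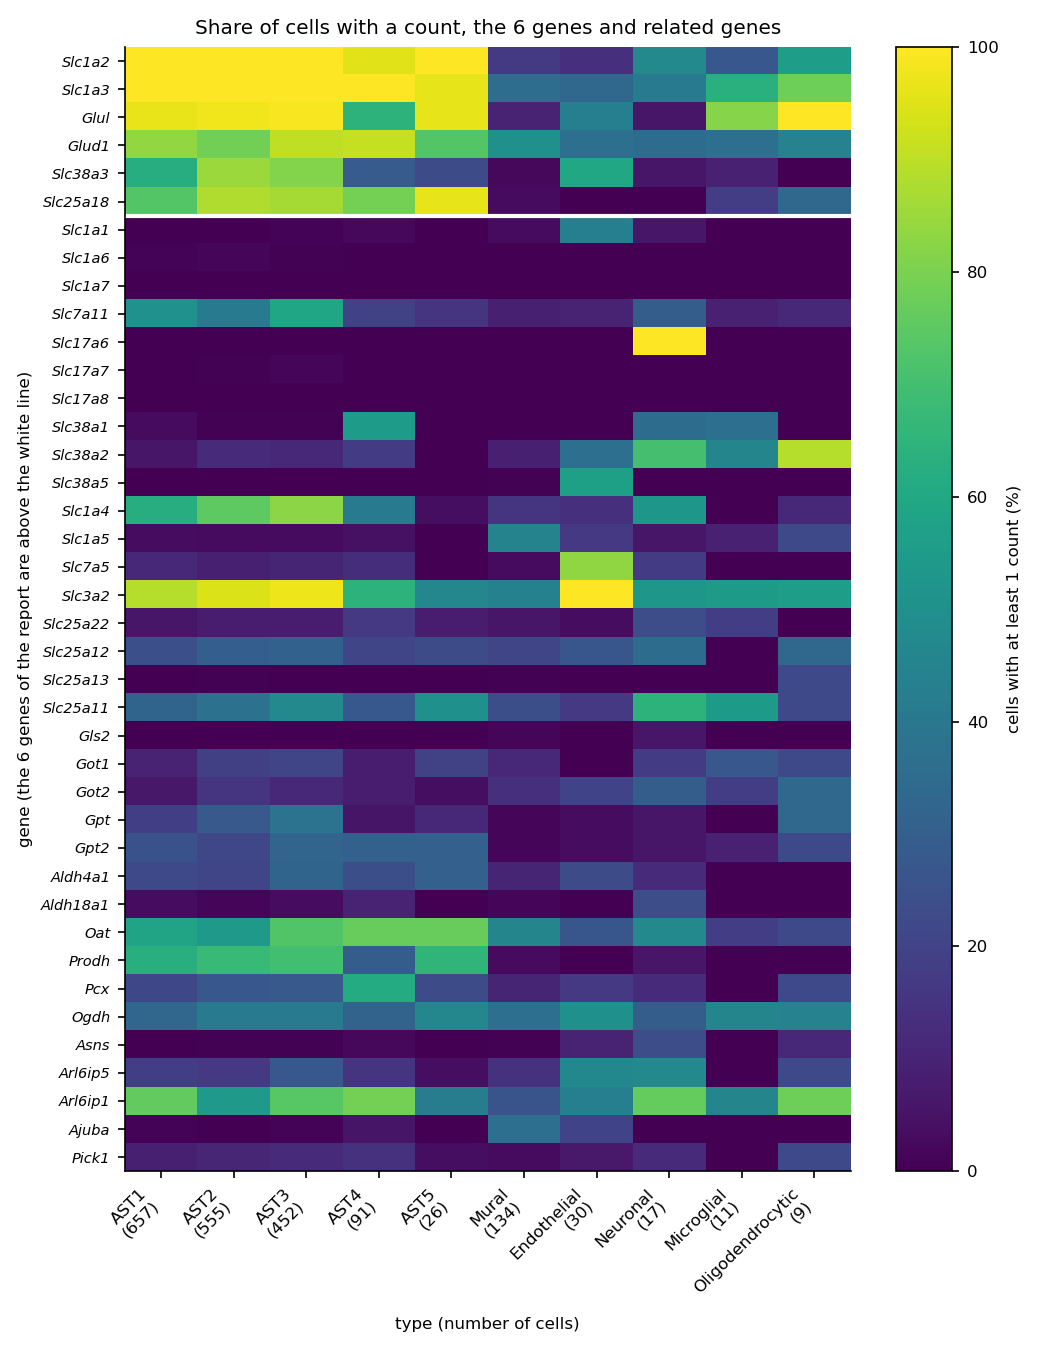
Share of cells with at least 1 count (colour, percent) of the 6 genes, above the white line, and of related genes in each type; numbers of cells are in parentheses. *Slc25a18* is near 0 outside astrocytes except in microglial and oligodendrocytic cells, *Glul* reaches 100% in the 9 oligodendrocytic cells, and *Slc38a3* 60% in endothelial cells.

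The related genes gave the setting. Of the 35 related genes, those with the highest CPM in astrocytes were *Slc3a2* (1299 ± 207.3), the neutral amino acid transporter *Slc1a4* (772 ± 121.7) and *Prodh* (542 ± 107.7; SD, n = 4). *Slc1a7* and the vesicular transporter *Slc17a8* had no count in 1781 astrocytes, which allows a share of up to 0.168%. Of 31 tested between areas over all astrocytes, edgeR called 0 and DESeq2 10, with 11 at an unadjusted p under 0.05, beside 0% and 9.70% of all genes called by the same tools. The median log2 difference was -0.14 for the 13 other enzymes and -0.19 for the 4 other mitochondrial carriers, beside 0.014 over all genes. It was 0.42 for the 4 genes of proteins linked to glutamate transporters and 0.049 for the 6 glutamine and neutral amino acid transporters tested. For the 4 other glutamate transporters tested it was -0.0074, and the 6 genes of this report had a median of -0.10. *Slc38a5*, a glutamine transporter of the same family as *Slc38a3*, stood at 687 ± 65.3 CPM in endothelial cells (SD, n = 3) and in astrocytes at no more than 0.0013 CPM in a sum, and was called higher (adjusted p = 0.032). *Ajuba*, which binds EAAT2, was called higher in endothelial (149.9 ± 94.6 CPM, adjusted p = 0.013) and mural cells (325.98 ± 153.2 CPM, 0.0034) than in astrocytes (4.4 ± 1.3 CPM). The vesicular glutamate transporter *Slc17a6* was counted in all 17 neuronal cells, at 1066 and 1565 CPM (adjusted p = 0.0087).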

How the data were processed

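Cells of 4 suspensions were sequenced at P56. The authors aligned reads to GRCm38.p5 and the ERCC sequences with STAR 2.5.2b after FastQC 0.11.4, and HTSeq gave the raw counts per gene and cell that were deposited. They are neither normalized nor pooled. The files of 2030 of 2031 cells were used. A table of the same counts was checked in 8 columns (8 equal totals), and its other 2023 columns were not used. Of 49671 gene identifiers 49326 had a symbol. ERCC and unassigned reads stayed out of library sizes.

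Types are the authors'. Their list, as used here, misses 33 cells and gives 15 no type, and these entered no comparison. Wells held single sorted cells and no doublet caller was run. The 6 genes and the related lists were chosen with earlier results of these data known. Related genes were named where they were called between areas, at 0 in a group or among the 3 highest, and the 3 genes most alike to each member among those with a mean of at least 50 CPM. The other related genes named (*Prodh*, *Slc38a1*, *Pcx*, *Slc3a2*, *Arl6ip1*, *Ajuba*, *Slc17a6* and *Slc38a5* in single types) were chosen after their values were seen. The values of 1 related gene are not reported here.

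Counts were summed per type and suspension (at least 5 cells) and tested with edgeR 4.0.16 (R 4.3.3, TMM, filterByExpr, robust quasi-likelihood, area as a term between types). Subtypes of a suspension share mice, so the suspension is a pairing by design, and their deviations within suspensions had correlations of 0.010 to 0.060 over genes. Only in the area test over all astrocytes do p-values measure the spread between suspensions. The other fits, where no block is named, take 17 sums (13 for cell types) from the 4 suspensions as independent. Their p-values measure the spread of these sums. Exact permutations and binomial intervals used scipy 1.17.1. Alternatives were DESeq2 1.42.0, RLE and ERCC scaling, no filter, no mitochondrial or rRNA genes, thinning, the block, sums of at least 2 cells, equal weights and each suspension left out, where a type left with 1 sum is assumed to vary like the others. Library size alone and the equal mean of subtypes were added after seeing the data. The fits were also run on simulated counts, but the results are not reported here. No rate of false or missed calls in these data is drawn from that run.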

Additional observations from a re-analysis of the deposited data

Results flagged for a closer look

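Of 24 gene and type combinations with 4 sums, 3 had a sum far from the other 3. The rule used flags about 1 in 20 sets of 4 normal values with equal spread. These sums come from both areas and differ in cell number, so that rate need not hold here and no excess is drawn from it. *Glul* in AST1 was highest in the first cortical suspension with 1380 CPM (57 cells), and *Glul* in AST2 was lowest in the first hippocampal suspension with 647 CPM (10 cells). *Slc38a3* in mural cells was at 39.2 CPM in the first hippocampal suspension and near 0 in the others.

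The 33 cells that the copy of the type list does not hold, all from the first cortical suspension, also held the genes. Their median CPM was 3948 for *Slc1a2*, 8122 for *Slc1a3*, 1390 for *Glul*, 483 for *Glud1*, 285.6 for *Slc38a3* and 1571 for *Slc25a18*. *Slc1a2* was counted in 32 of them. The 15 cells with no type all held both uptake transporters, with medians of 6689 CPM for *Slc1a2*, 8415 for *Slc1a3*, 1284 for *Glul*, 167.97 for *Glud1* and 1644 for *Slc25a18*, and 0 for *Slc38a3*, which was counted in 5 of them.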

How the results depend on the processing

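The count of member tests past the threshold was 0 of 6 between areas over all astrocytes, against 6 with DESeq2 and 4 on thinned cells, and 0 with each suspension left out. Between areas within subtypes it was 0 of 18 under all settings tried. For a subtype against the others it was 5 of 30, with 3 under ERCC scaling, 2 on sums of at least 2 cells, 11 with the other subtypes weighted equally (where 2.83% to 16.7% of all genes were called in a subtype), 8 with library size alone and 1 to 6 when leaving out a suspension. Between pairs of subtypes it was 15 of 60, with 7 on sums of at least 2 cells and 8 to 20 when leaving out a suspension. For cell types it was 7 of 18, with 13 by DESeq2, 4 without the filter, 12 on thinned cells, 4 with the replicate block and 2 to 6 when leaving out a suspension. The share of all genes called moved with the setting too, so these counts alone show nothing particular to the 6 genes. The cause of these changes was not tested.

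The replicate block left 0 calls between areas, over all astrocytes and within subtypes, 4 of 30 against the other subtypes and 15 of 60 between pairs, and changed no other call than those named above. Cortical and hippocampal suspensions share only a number, and their deviations had a correlation of 0.019 over genes.

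*Glud1* between areas reversed to -0.11 with subtypes weighted equally. In AST5, *Slc1a2* reversed to 0.010 with ERCC scaling and 0.42 with library size alone, *Glud1* to 0.083 with library size alone, and *Slc25a18* (0.087) to -0.032 without the filter, with -0.083 to 0.35 when leaving out a suspension. The area difference of the *Slc1a2* to *Slc1a3* ratio moved from 0.14 to 0.060 as a mean over cells, with 0.12 to 0.16 when leaving out a suspension. That of *Glul* to *Glud1* moved from -0.68 to -1.35 as a mean over cells, and within AST2 it reversed from -0.19 to 1.12. At 10 counts or more, 93.5% of astrocytes had *Glul*, 82.1% *Glud1* and 68.7% *Slc38a3*.

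Over all genes, AST4 calls moved from 0.636% to 11.5% with DESeq2 and AST5 calls from 17% to 43.7%. Against AST4, 94.1% of genes called in AST1 were higher (64.5% with ERCC scaling), 82.2% in AST2 (43.2%, and 70.6% with library size alone) and 89.1% in AST3 (77.7% with ERCC scaling). The share of called genes that were higher also moved with the scaling elsewhere. It was 28.4% in endothelial cells (40.7% with ERCC scaling, 44.5% with library size alone) and 7.04% in neuronal cells (28.7% and 24.1%). For the mean area effect of AST1 to AST3 it was 16.7% (3.49% with ERCC scaling), and for AST2, with 4 to 10 genes called, 20% (75% with RLE, 0% with ERCC scaling and 40% with library size alone). AST4 had 89 cells in 2 sums and AST5 24 cells in 3, and the precision of their values is limited by these numbers.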
